A study of Mus musculus with 4 samples.

Results

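Mouse embryonic fibroblasts transduced with 4 reprogramming factors were compared with untransduced fibroblasts, both grown at 5% O2. Total RNA of each culture was read on 1 one-colour (Cy3) microarray. A gene's level is the log2 of its spot signal less the 75th percentile of all probes on that array, and its difference is the four-factor level minus the untransduced level. A gene entered when its brightest probe stood well above background, as called by the extraction software, on at least 1 of the pair of arrays. That held for 18930 of 27582 genes on the array (68.6%), of which 15447 were measured on both arrays and carry a difference. The others were measured on 1 array and carry at most a bound.

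The four-factor cells were embryonic fibroblasts given Sox2, Klf4, Oct3/4 (encoded by Pou5f1) and c-Myc (encoded by Myc) by transduction and kept at 5% O2 for 72 hours, with a source label of day 4. The untransduced fibroblasts carried no factor and were kept at 5% O2 for 10 days. The remaining 2 arrays of the study hold the same pair of cultures at 21% O2 and are used here only as a second look at the same contrast. The sources used here do not give the strain, embryonic age, vector, number of embryos or share of cells that took up all factors. The cultures of a pair therefore differ in transduction and in time in culture, and these cannot be told apart. Each culture also had a slide and a scan of its own, which cannot be told apart from them either.

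Reprogramming by these factors is known to start with the loss of the fibroblast programme. Proliferation speeds up, and cells take on epithelial features in what is called the mesenchymal-to-epithelial transition. The pluripotency network, with Nanog among its core members, switches on later and in few cells. c-Myc is a broad activator of growth genes such as those of ribosome assembly and nucleotide synthesis. Low oxygen stabilises the hypoxia-inducible factors, which drive glycolysis, and has been used to help reprogramming.

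With 1 array per condition no difference has a replicate check, no test was possible and no p-value is given. Probes spotted several times on the arrays had a standard deviation between spots of 0.126 log2 units on the four-factor array and 0.069 on the untransduced array, which measures spotting and scanning, not cultures. At 5% O2, 68.4% of probes stood well above background on the four-factor array and 58.3% on the untransduced array. The lowest signals called well above background were 9.64 and 24.9 intensity units, or -6.90 and -5.13 on the log2 scale, so the four-factor array measured dimmer genes. No spot was saturated. The cultures are mixtures, and fewer cells of a type cannot be told apart from less RNA per cell in any value that follows.

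The transduced genes were read with every probe they have on the array. Pou5f1, which encodes Oct3/4, stood at -0.20 in four-factor cells at 5% O2 and at -7.42, not well above background, in untransduced cells. This is at least 30.5-fold higher, in the direction of the label. Myc has 3 probes, all on chromosome 15 (mouse build mm8, as for all probe positions). The probe at 61819528 to 61819587 read 4.05 in four-factor and -0.11 in untransduced cells, a difference of 4.17. The probe at 61819036 to 61819095 read 2.26 and -2.72, a difference of 4.98. The third, at 61819627 to 61819687, read 0.08 and 0.82, a difference of -0.74. Probes of 1 gene thus disagreed in direction by several log2 units. Klf4 (chromosome 4, 55549061 to 55549120) read 3.64 in four-factor and 5.34 in untransduced cells, a difference of -1.70. Sox2 (chromosome 3, 34843400 to 34843459) read -5.67 and -2.85, a difference of -2.82, with the four-factor value close to the background limit. Klf4 and Sox2 were thus not higher in the transduced culture by these probes. Which stretch of each gene was carried by the vectors is unknown here, and outside it a probe reads only the cell's own transcript.

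Differences were wide and ran both ways. Among 15447 genes with a difference, the difference was 2-fold or more on the higher side for 2642 (17.1%) and on the lower side for 3086 (20.0%), together 37.1%. Scaled on the 8 spike-in control probes instead of the 75th percentile, the split was 5392 higher and 1721 lower, because that scaling moved the median of all genes by 0.62, and any lower value closer to 0 than this turns positive with it and the smallest lower calls end. With no filter on dim probes the split was 4056 and 9996 of 27582. At 4-fold the counts were 693 and 1253, and at 16-fold 58 and 229. The four-factor array reads to a lower limit (-6.90 against -5.13), so a lower difference can be measured where a higher one of the same size becomes a bound. With the higher limit applied to both arrays, an alternative added after seeing the data, the 2-fold split was 2642 higher and 2517 lower. The median of all genes was -0.02 with quartiles of -0.76 and 0.68. A further 407 genes were at least 2-fold higher by a bound (2.15% of 18909) and 461 lower by a bound (2.44%). All 461 genes measured only in untransduced cells passed 2-fold, because the lower limit of the four-factor array leaves room for a bound. For 1979 genes measured on 1 array only, mainly in four-factor cells, no fold could be given.

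**Figure D1:**
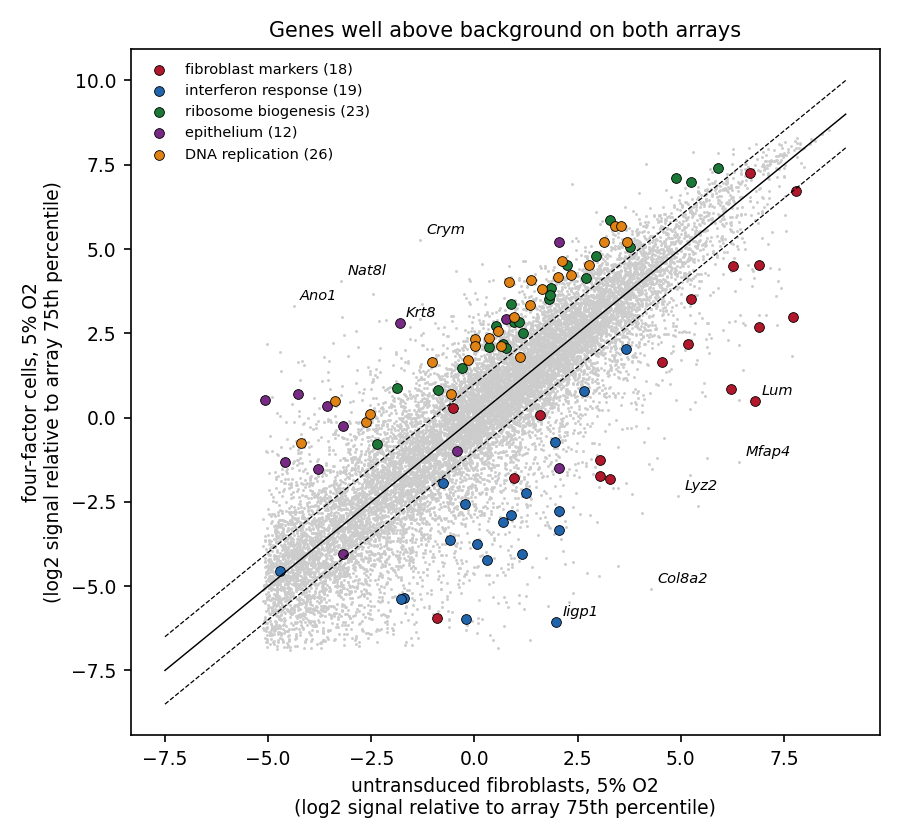
Each point is 1 of 15447 genes measured on both arrays at 5% O2, with its log2 signal over the 75th percentile of the array in untransduced cells (horizontal axis) and in four-factor cells (vertical axis), the lines marking equal signal and 2-fold differences. Genes such as Ano1 (difference 7.68) lie far above the diagonal and Col8a2 (-9.37) far under it, and the lower side holds more of the distant points.

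The 15 genes furthest on the higher side were of many kinds, from ion channels to junction proteins and metabolic enzymes. Ano1, a calcium-activated chloride channel (chromosome 7, 144398494 to 144398553), read 3.30 in four-factor and -4.38 in untransduced cells at 5% O2, and 3.86 and -2.87 at 21% O2. Its difference at 5% O2 was 7.68. Nat8l, which makes N-acetylaspartate, was higher by 7.28 (4.06 against -3.22), and Crym, a thyroid hormone binding protein, by 6.58 (5.26 against -1.32). All 3 lay under their array's 75th percentile in untransduced cells and above it in four-factor cells. Plekhh1 (7.21), Aoah, an enzyme that inactivates lipopolysaccharide (6.66), Sostdc1, a secreted BMP and WNT antagonist (6.19), Epop, a Polycomb-associated protein of embryonic stem cells (6.12), and Pipox, a peroxisomal sarcosine oxidase (6.07), followed. Next came Wfdc2 (5.91), the cadherin Cdh20 (5.68), Ccdc88c (5.65), the tight junction claudin Cldn3 (5.62), Urah (5.61), the water channel Aqp3 (5.50) and Tdh (5.43). Tdh encodes threonine dehydrogenase, an enzyme known for its abundance in mouse embryonic stem cells. It read 1.79 in four-factor and -3.64 in untransduced cells at 5% O2, and 1.77 and -3.11 at 21% O2, so that both four-factor arrays stood above both untransduced arrays. Where the untransduced value lay near its background limit, size and rank depend on the background correction. With normexp correction Plekhh1 was at 5.39, Pipox at 4.42, Cldn3 at 3.99 and Aqp3 at 3.67.

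Further genes were dim in untransduced cells and bright in four-factor cells. Akr1c18, a hydroxysteroid dehydrogenase that inactivates progesterone, read 4.55 in four-factor cells and -5.97, not well above background, in untransduced cells, at least 822-fold higher. Ceacam2 (at least 335-fold), Scg5 (237-fold), the desmosomal plakophilin Pkp1 (234-fold), the annexin Anxa10 (156-fold), Sptssb (118-fold), the nuclear pore protein Nup210 (91.9-fold) and the atrial myosin light chain Myl7 (83.7-fold) were the other bounds of that size. Akr1c18 and Ceacam2 belong to families of close copies, which a probe may not separate.

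On the lower side, matrix and receptor genes stood beside genes of the innate immune response. Col8a2, a short-chain collagen (chromosome 4, 125816501 to 125816560), read -5.09 in four-factor and 4.28 in untransduced cells, a difference of -9.37, and -5.17 and 3.91 at 21% O2. Mfap4, a microfibril protein, read -1.31 and 6.42 (-7.73), and Agtr2, the type 2 angiotensin receptor, -2.63 and 5.43 (-8.06). All 3 stood above the 75th percentile of the untransduced array and under that of the four-factor array. Angptl1 (-8.07), the globin Cygb (-8.06), the interferon-induced GTPase Iigp1 (-8.06), Reg1 (-7.96), the alcohol dehydrogenase Adh1 (-7.89), the prostaglandin D synthase Ptgds (-7.77), the potassium channel Kcnj8 (-7.72) and Gfra3, a receptor for artemin (-7.58), followed. Tinag (-7.41), the lysozymes Lyz1 (-7.36) and Lyz2 (-7.26) and Kera, keratocan (-7.07), completed the 15. Lyz1 and Lyz2 are close copies and may share signal. Where the four-factor value lay near its background limit, the size depends on the background correction: with normexp correction Col8a2 was at -7.69, Reg1 at -5.16, Tinag at -4.34 and Kera at -4.29. By bound, Gpr17 was at least 597-fold lower, Hvcn1 225-fold, Mup1, of a family of close copies, 164-fold, the macrophage surface receptor Adgre1 147-fold, the homeobox gene Meox1 146-fold, Scg2 127-fold, Ms4a7 118-fold and Galnt9 113-fold.

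**Figure D2:**
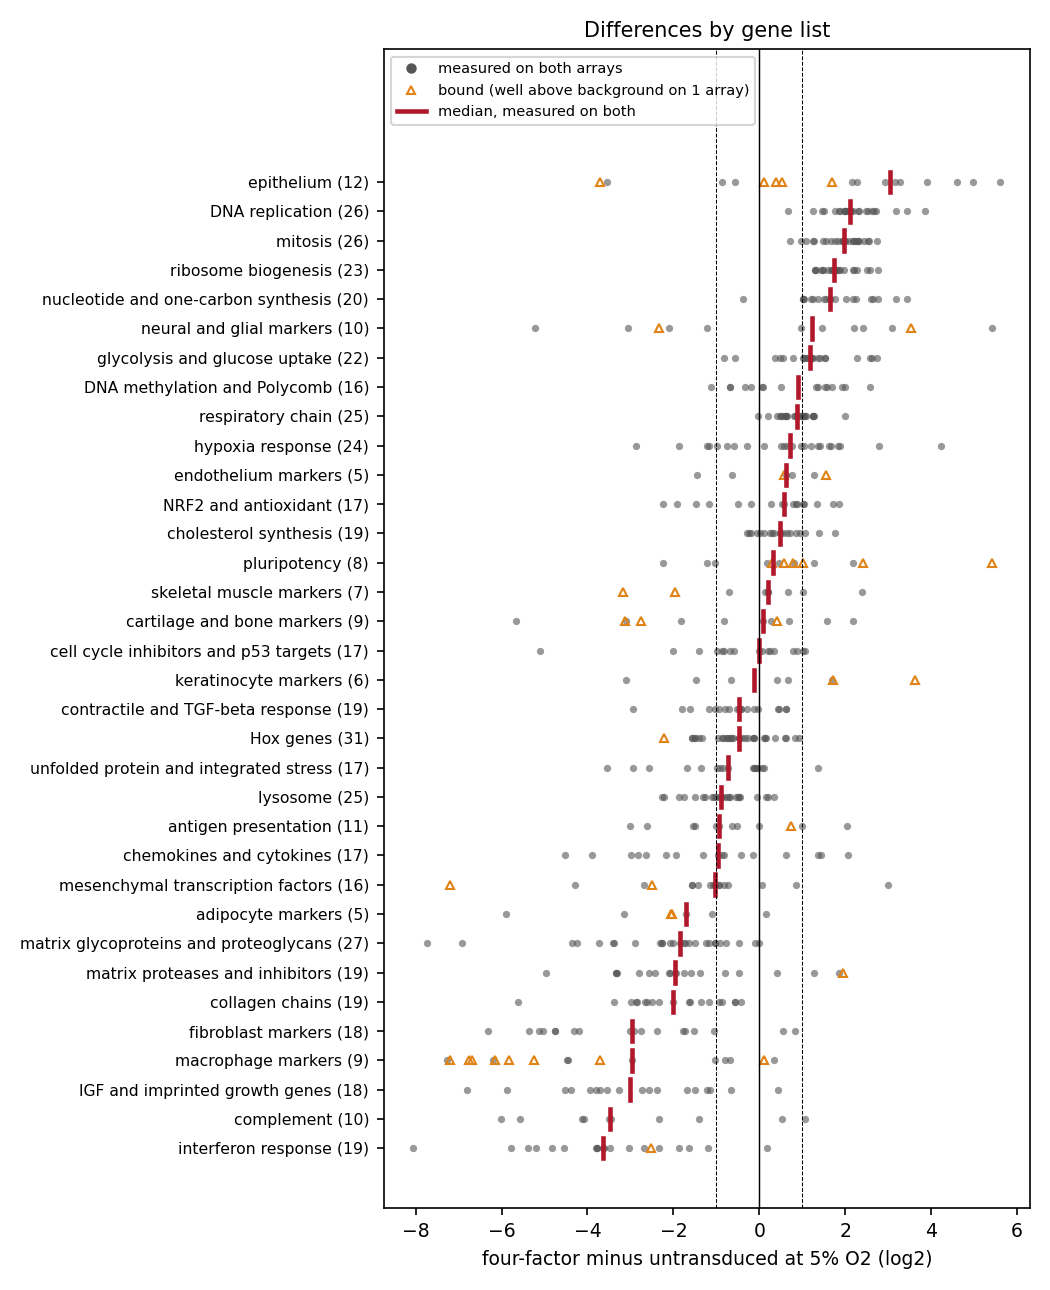
Each row is a gene list and each point a member's log2 difference at 5% O2 (four-factor minus untransduced), circles for genes measured on both arrays and triangles for bounds, with a bar at the median of the measured members; the germline and erythroid lists, with 2 measured members each, are not drawn. Lists run from epithelium (median 3.04) and DNA replication (2.12) to complement (-3.48) and interferon response (-3.65), and the median of all 15447 genes is -0.02.

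Epithelial junction and keratin genes were mostly higher in four-factor cells. Of 25 genes on the array, 12 were measured in both cultures, with a median of 3.04, 9 at least 2-fold higher and 1 lower. Cdh1, the E-cadherin whose gain marks the mesenchymal-to-epithelial transition, read -1.51 in four-factor and -3.79 in untransduced cells, and -2.08 in four-factor cells at 21% O2, where the untransduced value of -7.00 was not well above background. Krt8, a keratin of simple epithelia, read 2.80 against -1.81 at 5% O2 and 1.43 against -2.69 at 21% O2. For both genes the four-factor arrays were the higher at either oxygen level. Cldn3 (5.62), the desmosomal Dsp (4.97), Pkp3 (3.27), the p53-regulated desmosomal protein Perp (3.15), the membrane protease St14 (2.94) and Krt19 (2.16) were also past 2-fold, and Epcam, an epithelial adhesion molecule, was at least 3.24-fold higher. Other members stood lower: Krt18, with which Krt8 forms filaments, was at -0.56, Krt7 was lower by 3.53 on the log2 scale and Cldn4 was at least 13.1-fold lower. The epithelial regulators Grhl2, Esrp1 and Ovol1 were not well above background on either array, and Elf3 was at least 1.08-fold higher.

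**Figure D3:**
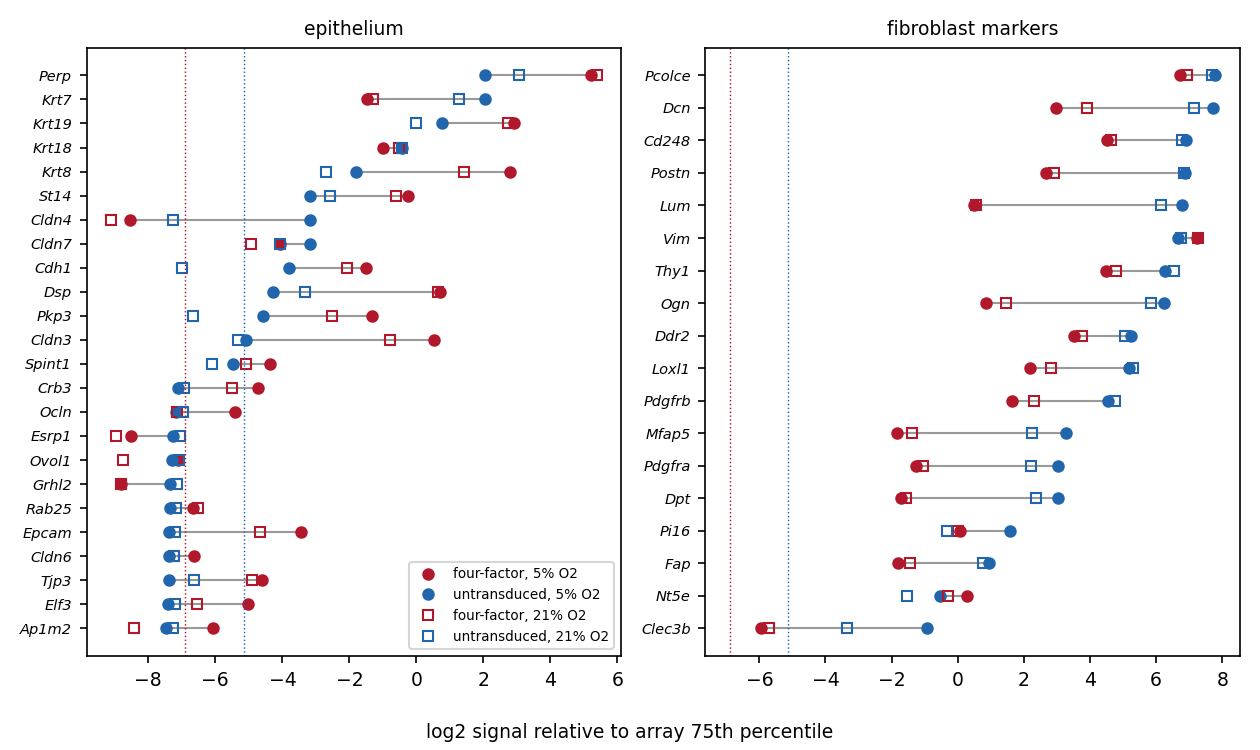
Log2 signal over the 75th percentile of its array for genes of the epithelium list (left) and fibroblast markers (right) on the arrays at 5% O2 (filled) and 21% O2 (open), four-factor in red and untransduced in blue; dotted lines mark the lowest signals well above background on the 5% O2 arrays, -6.90 and -5.13. Krt8, Dsp and Cldn3 lie further right in four-factor cells, and Lum (0.49 against 6.80 at 5% O2) and Ogn further left.

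Of 22 pluripotency genes on the array, 17 passed the background filter in four-factor cells and 8 in untransduced cells, whose array has the higher limit, and 5 were dim on both. The 8 were measured on both arrays, 2 at least 2-fold higher and 3 lower, against 17.1% and 20.0% of all genes. Their median was 0.32, and -0.28 when a gene's probes were averaged. Fbxo15, a reporter gene of early reprogramming studies, read -1.98 against -4.17 (2.18), and Tfcp2l1, a factor of naive pluripotency, -2.60 against -3.87 (1.27, and 0.75 with normexp background correction, under 2-fold). Zfp296 read 0.39 in four-factor cells and was at least 43.0-fold higher, Nr0b1 at least 5.36-fold and Tdgf1, a Nodal co-receptor, at least 2.02-fold. Nanog was well above background in four-factor cells only, at -5.57, under the untransduced array's limit, so no fold can be given. Esrrb, Lin28a, Dppa3, Dppa4 and Nr5a2 were not well above background on either array. Dppa5a (-2.25), Tbx3 (-1.21) and Klf5 (-1.03) were lower, and Klf2, of the same family as Klf4, read 5.55 against 5.37 by its brightest probe, with another probe of it at -2.96.

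Fibroblast markers were lower in four-factor cells with few exceptions. Of 18 fibroblast markers, each with a value in both cultures, 16 were at least 2-fold lower and none was 2-fold higher, with a median of -2.96. Lum, the proteoglycan lumican, read 0.49 in four-factor and 6.80 in untransduced cells at 5% O2, and 0.57 and 6.16 at 21% O2, a difference of -6.31 at 5%. Dcn, decorin, read 2.98 and 7.73 at 5% O2 (-4.75), and the PDGF receptor Pdgfra, a surface marker of mesenchyme, -1.26 and 3.05 (-4.31). Ogn (-5.37), Mfap5 (-5.12), Clec3b (-5.03), Dpt (-4.77) and Postn, periostin (-4.20), showed differences of the same order, while Thy1, a surface antigen lost early in reprogramming, was at -1.78. With normexp background correction Clec3b was at -2.86. Only Vim, vimentin (0.56), and Nt5e, the ecto-nucleotidase CD73 (0.82), stood higher among the 18, neither past 2-fold. The labelled cell type is carried by these markers in the untransduced culture, where Dcn, Lum and Pcolce (7.795) all stood far above its 75th percentile.

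Matrix genes followed in graded fashion. All 19 collagen chains of the list, which leaves some chains out, were lower, 14 at least 2-fold, with a median of -1.998. Among all genes 50.7% were lower by any amount. With spike-in scaling Col1a1, Col1a2 and Col7a1 turned positive. By their brightest probes the main fibrillar chains Col1a1 (6.40 against 6.84, -0.44) and Col1a2 (7.42 against 7.998, -0.57) were close to equal on both arrays. Another Col1a1 probe was at -2.88 and another Col1a2 probe at -1.32. Col3a1 was at -1.65, Col5a1 at -2.33, Col12a1 at -2.86 and Col14a1, a fibril-associated chain, at -5.62. Basement membrane chains Col4a1 and Col4a2 were at -0.87 and -0.93. The type I chains were thus bright in both cultures, and by the brightest probe most other chains differed more. Among 27 matrix glycoproteins and proteoglycans, 22 were at least 2-fold lower and none higher, with a median of -1.85. Elastin, Eln, read -1.71 against 5.22 (-6.93), its microfibril partners Mfap2 and Mfap4 were at -4.25 and -7.73, and Aspn at -4.37, while fibronectin, Fn1, was at -1.75 and tenascin, Tnc, at -0.01.

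Proteases that remodel matrix were lower too, with 14 of 19 at least 2-fold lower, 2 higher and a median of -1.95. Adamts2, which trims procollagen, was at -4.97, Adamts1 and Adamts5 at -3.34 and -3.33, and Mmp2 at -2.43. The inhibitor Timp1 was on the higher side (1.27), and Mmp10, a stromelysin, was at least 3.88-fold higher. Timp2 and Timp3 were at -2.10 and -1.95.

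Contractile and TGF-beta response genes differed less. Their 19 members had a median of -0.47, which turned to 0.15 with spike-in scaling. At least 2-fold lower were 5 and higher none, against 20.0% and 17.1% of all genes. Acta2, smooth muscle actin, read 6.52 against 6.99 (-0.47), Tagln 6.25 against 6.75 (-0.51) and Cnn1, calponin, 4.40 against 3.94 (0.47). Mylk, the myosin light chain kinase, was furthest at -2.93, followed by Tgfb1i1 (-1.80) and Myh11 (-1.61). At 21% O2 Cnn1 was at -0.69, so calponin stood on opposite sides in the comparisons of the oxygen levels, in neither case past 2-fold.

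Mesenchymal transcription factors were mostly a little lower. Of 16 measured in both cultures, 9 were at least 2-fold lower and 1 higher, with a median of -1.02. Snai2, Snai1 and Zeb2, repressors of E-cadherin, were at -1.56, -1.08 and -1.02, Twist2 at -1.57, Zeb1 at -0.94 and Twist1 at -0.83. Osr2 and Osr1 were at -4.28 and -2.69, and Meox1 and Tcf21 at least 146-fold and 5.62-fold lower. The forkhead gene Foxd1 went the other way, at 3.96 against 0.96 (2.99). Hox genes, which record position along the body axis, had a median of -0.48 over 31 members, 0.14 with spike-in scaling, with 6 at least 2-fold lower, near the 20.0% of all genes, and none higher. Hoxa13 (-1.56), Hoxd3 (-1.55) and Hoxb4 (-1.499) were furthest. With normexp Hoxa13 was at -0.60 and Hoxd3 at -0.84, and with spike-in scaling Hoxa13, Hoxd3, Hoxb4, Hoxd8 and Hoxc8 were under 2-fold. Hoxb8 was at least 4.67-fold lower.

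Growth factors of the IGF axis and imprinted genes formed one of the lists with the lowest medians, -2.998 over 18 members, 16 of them at least 2-fold lower. Igfbp5, an IGF binding protein, read -1.19 in four-factor and 5.63 in untransduced cells (-6.81), and Dlk1, a paternally expressed Notch-like ligand, 1.84 and 7.70 (-5.86). Igf1 was at -4.39, Igf2 at -2.72 and its maternally expressed neighbour H19 at -3.81, with Meg3, from the Dlk1 locus, at -3.70. Paternally and maternally expressed members of each locus stood lower alike. Igf1r, the receptor, was at 0.43, with probes on either side of 0, and Grb10 at -0.66. Cdkn1c, an imprinted inhibitor of cell division held in another list, read 1.41 against 6.52 (-5.11).

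Genes of DNA replication were higher without exception. All 26 were measured on both arrays and higher, against 49.3% of all genes, 25 of them at least 2-fold, with a median of 2.12. Cdc6, which loads the replicative helicase, read 0.49 in four-factor and -3.37 in untransduced cells (3.86), and Orc1, of the origin recognition complex, -0.75 and -4.19 (3.45). The helicase subunits Mcm2 to Mcm7 ranged from 1.51 (Mcm4) to 3.20 (Mcm5), and Pcna, the sliding clamp, was at 2.13. Of 26 mitotic genes, all were higher and 24 at least 2-fold, with a median of 1.97, among them Cenpa (2.74), Ccnb1 (2.55), Aurkb (2.53) and Anln (2.44), while Ccnb2 was at 0.71. The quartiles were 1.91 and 2.52 for replication and 1.58 and 2.27 for mitosis, so members stood close together.

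The inhibitors of division and p53 targets gave no such common direction. Their median was -0.01 over 17 members, 0.03 with median scaling and 0.61 with spike-in scaling. At least 2-fold higher were 2 and lower 3, against 17.1% and 20.0% of all genes. Cdkn1a, or p21, was at 0.34, Cdkn2a, which encodes p16 and p19Arf, read 0.38 against 0.39 (-0.01), and Cdkn2b read 3.70 against 4.37 (-0.67). Mdm2 (1.07) and Bax (1.02) were just past 2-fold, but under it with normexp (0.97 and 0.999) and with quantile normalization (0.98 and 0.87), as was Mdm2 with averaged probes. Gadd45a was at -2.02 and Sesn1 at -1.41.

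Ribosome assembly and nucleotide synthesis were higher as well. By their brightest probes all 23 ribosome biogenesis genes were at least 2-fold higher, with a median of 1.74 and a range of 1.29 to 2.77. The other probe of Pes1 was at 0.08. Dkc1, the pseudouridine synthase dyskerin, read 0.88 against -1.89 (2.77), Nop56 of the box C/D particles 5.87 against 3.28 (2.59) and Fbl, fibrillarin, 7.10 against 4.89 (2.21). Ncl, nucleolin, and Npm1, nucleophosmin, were at 1.74 and 1.495. Of 20 genes of nucleotide and one-carbon synthesis, 19 were at least 2-fold higher by the brightest probe, with a median of 1.65. Another probe of Gmps was at 0.01. Shmt1 was at 3.44, Ppat, the first committed enzyme of purine synthesis, at 3.18, Pfas at 2.76, Umps at 2.65 and Cad, which opens pyrimidine synthesis, at 2.18. The exception was the mitochondrial Mthfd2 (-0.38), whereas its cytosolic counterpart Mthfd1 was at 2.61. Both are lists of genes known to respond to Myc, whose probes disagreed as given above.

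The E-box CACGTG, the letters Myc and other helix-loop-helix factors recognise, was looked for in the 250 bases before each gene's start in RefSeq (build GRCm38.p6, both strands, the motif being its own reverse complement). It was present for 1 of 18 ribosome biogenesis genes with a sequence (5.56%), for 3 of 18 nucleotide synthesis genes (16.7%) and for 1854 of 27025 genes in all (6.86%). The match of Nop2, an rRNA methyltransferase that was higher by 1.85, is shown as the only one of its list, with the motif in capitals (chr6:125131798-125131853, plus strand).
Nop2: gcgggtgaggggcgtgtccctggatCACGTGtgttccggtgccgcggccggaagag

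Of 16 genes of DNA methylation and Polycomb silencing, 8 were at least 2-fold higher and 1 lower, with a median of 0.91. Uhrf1, which recruits the maintenance methyltransferase to replicated DNA, was at 2.59 and that enzyme, Dnmt1, at 1.52. The Polycomb core members Suz12, Ezh2 and Eed were at 2.01, 1.93 and 1.37, and Cbx2 at 1.69, whereas Ezh1 and Bmi1 of the same machinery were at 0.05 and -0.67. Of the de novo enzymes, Dnmt3b was at 1.58 and Dnmt3a at -1.13. The Tet oxidases were close to equal or lower, with Tet2 at 0.09, Tet3 at -0.19 and Tet1 at -0.67.

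Both cultures were at 5% O2, and still glycolytic genes were higher in four-factor cells. Of 22 genes, 16 were at least 2-fold higher and none lower, with a median of 1.19. Hk2, hexokinase 2, read 4.45 in four-factor and 1.71 in untransduced cells (2.74), the platelet phosphofructokinase Pfkp 2.57 and -0.01 (2.58) and the glucose transporter Slc2a3 2.17 and -0.11 (2.28). Slc16a3, which exports lactate, read 6.26 and 3.64 at 5% O2 but 1.62 and 1.42 at 21% O2, so its difference was 2.62 at 5% and 0.20 at 21%. The transporter Slc2a1 likewise was at 1.53 and -0.23, and Pdk1, the kinase that restrains pyruvate oxidation, at 1.04 and -0.22. For the list, the median at 21% O2 was 0.56. The hypoxia response list was mixed, with a median of 0.71. Of 24 members, 10 were at least 2-fold higher and 4 lower, against 17.1% and 20.0% of all genes. Egln3, the prolyl hydroxylase, was at 4.24, Ankrd37 at 2.78 and Bnip3 of mitophagy at 1.63, while Lox, a collagen crosslinking enzyme, was at -2.86, Adm at -1.88 and Vegfa at -0.27. Ndrg1 (-1.22) and Angptl4 (-1.18) were the other members at least 2-fold lower. The collagen prolyl 4-hydroxylases P4ha1 (-0.98) and P4ha2 (-0.74) were lower by less than 2-fold.

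Respiratory chain genes were higher by smaller steps, with 24 of 25 higher, 10 at least 2-fold and a median of 0.89. Cytochrome c, Cycs, led at 1.99, followed by Sdhd (1.27), Cyc1 (1.25), Uqcrfs1 (1.25) and Cox5a (1.25). Under quantile normalization Cox5a and Atp5a1 were under 2-fold. NRF2 and antioxidant genes had a median of 0.58 with 5 of 17 at least 2-fold higher and 4 lower, against 17.1% and 20.0% of all genes. Gsr, glutathione reductase (1.85), Gsta4 (1.71) and G6pdx, the entry to the pentose phosphate path (1.34), lay on one side, and Osgin1 (-2.24), Gstm1 (-1.91), Hmox1, haem oxygenase (-1.47), and the cystine importer Slc7a11 (-1.17) on the other. Cholesterol synthesis was near the middle of all genes, with a median of 0.48 and 3 of 19 past 2-fold, Idi1 (1.76), Stard4 (1.40) and Pmvk (1.07, under 2-fold with quantile normalization and with averaged probes). The unfolded protein and integrated stress list had a median of -0.74. Within it the chaperones Hspa5 (-0.12) and Calr (-0.04) were near equal, whereas Trib3 (-3.54), Ddit3, or CHOP (-2.94), and Chac1 (-2.57), which act in the integrated stress response, were lower, and Sdf2l1 was higher by 1.37.

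By members measured in both cultures, interferon-stimulated genes had the lowest median of the 36 lists, -3.65 over 19. Of these, 18 were at least 2-fold lower and none higher, and Oasl1 was at least 5.76-fold lower. Ifit1, which binds viral RNA, read -5.99 in four-factor and -0.21 in untransduced cells at 5% O2 (-5.77), and its difference at 21% O2 was -4.48. Its four-factor value lay near the background limit, and with normexp background correction the 5% O2 difference was -3.56. Ifit3 read -3.33 and 2.06 (-5.38) and Igtp, an immunity-related GTPase, -2.78 and 2.04 (-4.82). The signalling genes of the pathway were lower as well, with Stat2 at -3.48, Irf9 at -2.67 and Irf7 at -3.65, as were the RNA sensors Ddx58, or RIG-I (-2.34), and Ifih1, or MDA5 (-3.02). Isg15 was at -3.77 and Usp18, which removes it, at -3.79. Rsad2, or viperin, was near the lower range on both arrays (-4.54 and -4.71) and was at 0.17 at 5% O2 and -1.79 at 21% O2.

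The interferon-stimulated response element, the letters GAAANNGAAA on either strand (TTTCNNTTTC read on the other), was searched in the same 250 bases. It was present for 8 of 16 interferon genes with a sequence (50%), for 1 of 10 antigen presentation genes (10%) and for 936 of 27025 genes (3.46%). The interferon genes with a match had a median difference of -3.78 (-5.77 to 0.17). The 8 without one, with Oasl1 entered by its bound, had a median of -2.85 (-5.20 to -1.19). The matches of 3 genes of this list that were at least 16-fold lower are shown with the element in capitals, both matches for Ifit1, the one nearer the start of the gene for Ifit3 and the only one for Igtp. The stretches are Ifit1 at chr19:34640779-34640838, Ifit3 at chr19:34583382-34583441 and Igtp at chr11:58199497-58199555, all plus strand. A match describes the letters and is not evidence of binding.
Ifit1: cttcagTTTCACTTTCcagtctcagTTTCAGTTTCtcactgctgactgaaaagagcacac
Ifit3: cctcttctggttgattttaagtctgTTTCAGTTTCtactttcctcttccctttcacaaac
Igtp: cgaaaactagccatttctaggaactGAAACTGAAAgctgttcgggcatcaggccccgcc

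Macrophage markers were lower together with these genes. Their summed signal, in units of the array's 75th percentile, was 1.02 in four-factor and 38.95 in untransduced cells at 5% O2, and 1.24 and 17.6 at 21% O2. Of 17 markers, 16 were well above background in untransduced cells and 10 in four-factor cells. The 9 measured on both arrays had a median of -2.96, 6 of them at least 2-fold lower, and 7 more were lower by a bound. The remaining marker was measured in four-factor cells only and was higher by a bound under 2-fold. Lyz2, the macrophage lysozyme, made up most of the sum in untransduced cells and read -2.32 against 4.94, and Adgre1 was at least 147-fold, C1qc at least 109-fold and Tyrobp at least 103-fold lower. Adgre1, C1qa, C1qc, Tyrobp, Mrc1, Aif1 and Ptprc stayed under the background limit of the four-factor array. Against the trend, Laptm5 was at 0.34, and Cd14 and Cd53 were at -0.79 and -0.67. The part of macrophage RNA in the interferon, complement, chemokine and lysosome differences was not tested.

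**Figure D4:**
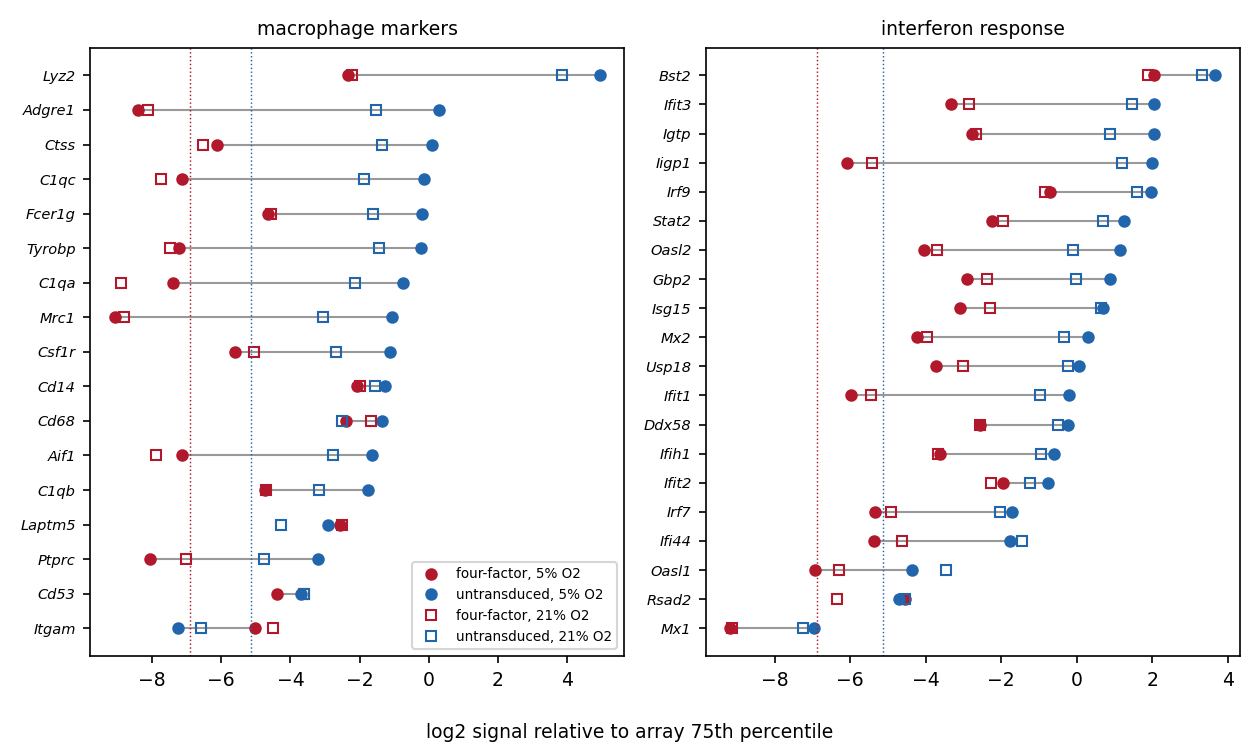
Log2 signal over the 75th percentile of its array for macrophage markers (left) and interferon response genes (right), with 5% O2 filled, 21% O2 open, four-factor in red and untransduced in blue; dotted lines mark the lowest signals well above background on the 5% O2 arrays. At 5% O2 Lyz2 lies at 4.94 (untransduced) and -2.32 (four-factor), and Ifit3 at 2.06 and -3.33.

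Complement genes were lower in 8 of 10 cases by at least 2-fold, with a median of -3.48. Cfb read -5.94 against 0.08 (-6.02), C2 -2.09 against 3.49 (-5.58) and C3, the central component, -0.32 against 3.79 (-4.12). With normexp background correction Cfb was at -3.73. In antigen presentation the immunoproteasome subunits Psmb8 (-3.01) and Psmb9 (-2.61) and the peptide transporter Tap2 (-1.49) were lower, the class I heavy chains H2-K1 and H2-D1 were at -0.64 and -0.51, and the class II gene H2-Ab1 was higher by 2.04. Tap1 (-1.002) was just past 2-fold, and under it with normexp (-0.84), spike-in scaling (-0.38) and quantile normalization (-0.95). With spike-in scaling Tapbp (-0.93) and Tap2 (-0.86) were under 2-fold too. That list's median was -0.95 over 11 members, with 1 at least 2-fold higher and 5 lower, against 17.1% and 20.0% of all genes. Its class I and class II genes belong to families of close copies.

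Chemokines and cytokines went both ways around a median of -0.96. Of 17, 3 were at least 2-fold higher and 8 lower, against 17.1% and 20.0% of all genes. Cxcl12, the stromal ligand of CXCR4, read -0.31 against 4.20 (-4.51), Ccl11 was at -3.90, Cxcl5 at -2.98, Il33 at -2.82 and Csf1, the macrophage growth factor, at -2.17. With normexp background correction Ccl11 was at -1.87. Il6 (2.06), Ccl2 (1.45) and Ccl7 (1.37) were higher at 5% O2, and at 21% O2 they were at 0.15, 0.01 and 0.43. Lysosomal genes had a median of -0.88, with 9 of 25 at least 2-fold lower and none higher, among them Hexa, a hexosaminidase subunit (-2.21), and Gaa (-1.87), while Lamp1 and Ctsd were at -0.50 and -0.48.

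Markers of other cells that a fibroblast culture can hold were set beside these values. Adipocyte markers summed to 2.44 in four-factor and 89.8 in untransduced cells at 5% O2, mainly through Lpl, lipoprotein lipase (0.53 against 6.42), and 4 of 5 measured members were at least 2-fold lower, with Fabp4 at -3.15. The cartilage and bone list had a median of 0.10 over 9 members, with Comp (-5.67) and Sox9 (-3.10) lower and Spp1, osteopontin, higher by 2.19. Skeletal muscle markers had a median of 0.20 over 7 and endothelial markers 0.63 over 5, while Pecam1, Tie1, Myog and Myf5 were not well above background on either 5% O2 array. Neural and glial markers parted, with the neuronal Nefl (5.43), Stmn2 (3.09) and Tubb3 (2.204) higher, Elavl4 at least 11.6-fold higher, and the glial Sox10 (-5.22) and S100b (-3.06) lower. Their part in the differences above was not tested.

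The same contrast at 21% O2 rests on 2 other arrays, which share their slides with those at 5% O2. Over 14926 genes measured on all 4 arrays, the differences at 5% and 21% O2 had a Pearson correlation of 0.94 and a Spearman correlation of 0.93 across genes, a description of these arrays only since genes are not replicates. At 21% O2, 1802 genes were at least 2-fold higher (11.8% of 15209) and 2522 lower (16.6%), together 28.4%. Of the 14926 genes, 2555 were past 2-fold on the higher side at 5% O2 and 1760 at 21% O2, and 1591 were so at both, 62.3% of the former and 90.4% of the latter. On the lower side 2879 and 2395 shared 2117, or 73.5% and 88.4%. Most of the genes past 2-fold at 5% O2 lay further from 0 there than at 21% O2, 2264 of 2555 on the higher side (median 1.5 against 1.15) and 2400 of 2879 on the lower (-1.74 against -1.44). These genes were picked by their size at 5% O2, which by itself favours the larger value there.

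**Figure D5:**
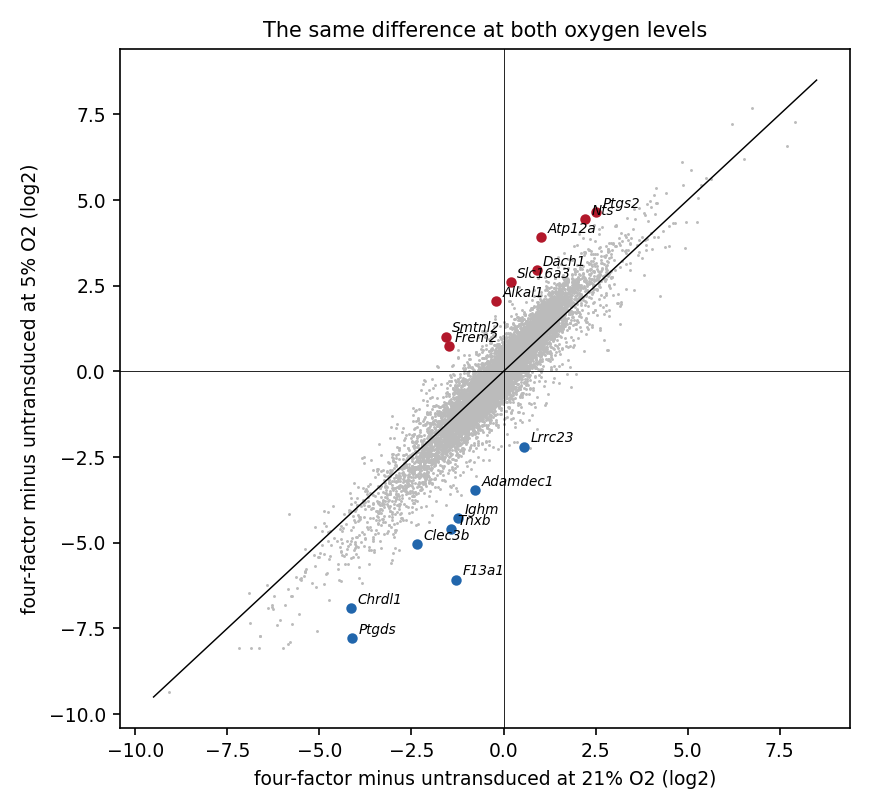
Log2 difference (four-factor minus untransduced) of 14926 genes at 21% O2 (horizontal axis) and 5% O2 (vertical axis), with a line of equal difference. Most genes lie along the line; F13a1 (-6.07 at 5%, -1.28 at 21%) and Ptgds (-7.77, -4.10) lie under it and Atp12a (3.92, 1.03) and Slc16a3 (2.62, 0.20) over it.

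Genes large in both comparisons included, on the higher side, Nefl, a neurofilament chain (5.43 at 5% and 5.35 at 21% O2), and Ano1, Nat8l, Crym and Plekhh1, and on the lower side Thbs4 (-6.45 and -6.91) and Mup4 (-6.90 and -6.38) besides Col8a2, Agtr2 and Mfap4. With normexp background correction the 5% O2 differences of Thbs4 and Mup4 were -3.85 and -4.455. Between the comparisons 696 genes (4.66%) differed by at least 2-fold. Atp12a, a proton pump, read -0.99 against -4.91 at 5% O2 and -2.01 against -3.04 at 21% O2. Ptgs2, the inducible cyclooxygenase, was at 4.65 and 2.51, with the untransduced arrays at -3.54 (5%) and -0.46 (21%) and the four-factor arrays at 1.11 and 2.05. For Ptgs2 the untransduced arrays thus lay further apart than the four-factor arrays. The same held for F13a1, a coagulation factor subunit that macrophages make, which read 0.57 and -3.21 in untransduced cells and -5.51 and -4.49 in four-factor cells. Ptgds read 2.29 and -1.29 in untransduced and -5.48 and -5.39 in four-factor cells, and Chrdl1, a BMP antagonist, 4.06 and 1.70, and -2.84 and -2.44. Nts, the neurotensin precursor (4.45 and 2.21), and the matrix genes Frem2 and Tnxb (-4.60 and -1.43) were among the others that departed most. By list, medians at 5% and 21% O2 were 2.12 and 1.29 for DNA replication, 1.97 and 1.20 for mitosis, 1.74 and 1.32 for ribosome biogenesis, 3.04 and 2.32 for epithelium and -0.47 and -0.94 for contractile genes. Of these 5 lists the contractile list alone lay closer to 0 at 5% O2. The epithelium medians rest on 12 members at 5% and 9 at 21% O2, where Cdh1, Cldn3 and Pkp3 carried only bounds.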

How the data were processed

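The 4 arrays were Agilent one-colour arrays of design 014868, with Quick Amp labelling (version 5.7) as the labels' protocols state. Spots were read with Feature Extraction 9.5.3.1 (protocol GE1-v5_95_Feb07), per the file headers. Its processed signal, the intensity the authors deposited, had background removed and was detrended on every array by itself, per the file headers. The authors also deposited a table of log2 values, which set against the scanner files was log2 of the processed signal less the array's 75th percentile within 0.01 for over 99% of probes. Its scale is thus known, it is not centred per probe, and its column medians were -3.87 and -3.69 (four-factor and untransduced at 5% O2) and -3.86 and -3.71 (21% O2).

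Of 45018 spots, 43379 were not controls, for 41174 probes. Spots marked as outliers (65 to 115 an array) were dropped, spots of a probe averaged, log2 taken and the 75th percentile subtracted. A gene was its brightest probe over 4 arrays. Names came from a RefSeq table of GRCm38.p6 by accession (24375 probes), symbol (6301) or synonym (2426), or from the files (8072). A bound sets the bright value against the higher of the dim array's lowest signal well above background and the dim probe's own.

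The members and the 36 gene lists were chosen with earlier results of these data known. Genes named were the transduced genes, the 15 largest differences and 8 largest bounds per direction, up to 6 list members (and those a sentence counts), the 8 most shared and 8 most departing between oxygen levels, and genes opposed between them. Some genes the rule covers are not reported here. List members named beyond that were chosen after their values were seen. Alternatives covered background correction (normexp in limma 3.58.1, R 4.3.3), scaling, the filter on dim probes, the probe for a gene and the deposited table. The counting was tested on simulated data. Tables were made with Python 3.11.15 and pandas 2.3.3. The number of arrays limits precision.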

Additional observations from a re-analysis of the deposited data

Results flagged for a closer look

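Smtnl2, a smoothelin-like protein, was the only gene of the 14926 measured on all 4 arrays that was at least 2-fold higher in four-factor cells at 5% O2 and at least 2-fold lower there at 21% O2. Its difference was 1.02 at 5% O2 (-1.66 against -2.68) and -1.57 at 21% O2 (-5.46 against -3.88). It has 1 array per condition at each oxygen level, and whether the differences differ was not tested. With normexp background correction the 5% O2 difference was under 2-fold.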

How the results depend on the processing

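No paired analysis was possible because the 5% O2 comparison has 1 array in each culture, and no array could be left out. A fit pairing the cultures within both oxygen levels, which asks for a difference common to them, was not run. A slide block could not be fitted, since each culture lay on a slide of its own. The count of genes at least 2-fold higher, 2642, was 5392 with spike-in scaling and 4056 with no filter on dim probes, and that of lower genes, 3086, was 1721 and 9996. With normexp correction, other scalings, the looser filter gIsPosAndSignif, averaged probes, the deposited table or a common floor for both arrays (added after seeing the data), the counts ran from 2210 to 3352 higher and from 2325 to 3969 lower. List medians near 0 turned sign in 9 cases. With spike-in scaling, contractile genes were at 0.15, Hox genes at 0.14, the p53 and inhibitor list at 0.61 (0.032 with median scaling) and keratinocyte markers at 0.50. The keratinocyte median was 0.004214 with averaged probes and 0.41 with the common floor, the pluripotency median -0.28 with averaged probes and the erythroid median -0.21 with no filter. All 218 named values past 2-fold kept their direction in every setting that gave a value, 194 of them under the common floor. Only normexp, quantile normalization and averaged probes could have turned a direction. The other settings keep the same difference, to within rounding, or move every gene by the same amount, less than 2-fold. Of the 218, 21 were under 2-fold with spike-in scaling, 13 with normexp, 7 with quantile normalization, 3 with averaged probes and 2 with median scaling. Depth is limited by background: the untransduced array's lowest usable signal was 24.9 against 9.64, so genes near it carry bounds or no fold.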

Other observations

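Germline, keratinocyte and erythroid genes were read as well. Ddx4, the germ cell helicase Vasa, read -6.04 in four-factor and -0.05 in untransduced cells at 5% O2 (-5.99) and was at -5.63 at 21% O2. With normexp background correction its 5% O2 difference was -3.64. Tdrd1, a Tudor protein of the germline, was at least 5.49-fold higher at 5% O2. The globins Hba-a1 and Hbb-y, which belong to families of close copies, were at least 19.2-fold and 17.4-fold higher at 5% O2, and the erythroid regulators Gata1 and Alas2 were not well above background on either 5% O2 array. Among keratinocyte genes Krtdap was at least 12.4-fold and Krt5 at least 3.27-fold higher and Krt14 was higher by 1.69. Trp63, the regulator of basal epithelium, was at -3.09, or -1.68 with normexp background correction. Ivl, involucrin, was not well above background on either array.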
